A study of Mus musculus with 4 samples.

Results

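The glycolysis and hypoxia response genes described here are 33 named genes of the 31053 in the count matrices of dissociated newborn mouse kidney. They were taken by gene symbol, and all 33 were found in both libraries. Aldoa has 2 matrix rows, and the row ENSMUSG00000030695 is used, since the other held at most 1 UMI in progenitor-like, stroma-like or endothelial-like cells of either library. A UMI (unique molecular identifier) stands for 1 captured RNA molecule. The genes fall into 16 for glucose entry and glycolytic enzymes, 5 for the lactate and pyruvate branch, and 12 of the hypoxia response.

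Glycolysis splits glucose into pyruvate in the cytosol. Pyruvate is then either reduced to lactate by lactate dehydrogenase or carried into mitochondria and oxidised. When oxygen is low, the prolyl hydroxylases that mark HIF1A for degradation slow down, and the stabilised factor raises the transcription of many glycolytic enzymes together with genes of mitophagy, collagen hydroxylation and feedback. In the kidney, the proximal tubule is known for gluconeogenesis and for burning fatty acids and lactate rather than glucose, whereas more distal segments use glucose readily.

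Newborn kidneys of both genotypes were compared, each as 1 single-cell RNA library of a whole kidney preparation. The Six2CreTet2/3f/f library carries, besides Six2Cre, floxed Tet2 and Tet3 alleles, which encode enzymes that oxidise 5-methylcytosine, and is called the floxed library below. The Six2Cre library carries the recombinase alone, so both share it. Six2Cre acts in Six2-positive nephron progenitors and is inherited by their descendants in the nephron, while stroma and endothelium do not arise from these cells. Whether animals were pooled is not stated in the labels. With 1 library per genotype there is no replicate check, and every interval below is an exact 95% interval that covers counting error only. Bisulfite libraries of sorted progenitors in the same series (2 samples) were not analysed here.

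The floxed matrix held 22543 barcodes and 115427704 UMIs, and the Six2Cre matrix 25736 barcodes and 197745868 UMIs, with 174 barcodes in common. After filtering, 14393 floxed and 19492 Six2Cre cells remained, with medians of 4781 and 5993 UMIs. Classes were rebuilt from marker genes, with the 33 genes kept out of the clustering, and are named class-like. In both libraries 8 of 9 progenitor markers, 9 of 9 proximal tubule markers, 8 of 9 loop and distal tubule markers, 11 of 11 stroma markers and 9 of 9 endothelial markers were higher in their class than in the remaining classes. The progenitor marker that was not is Dapl1. The same lists named the clusters, so these counts describe the classes and are no independent check of the names. Progenitor-like cells numbered 1597 floxed and 2643 Six2Cre cells, and their Tet3 transcripts stood at 41.5 CPM (UMIs of the gene scaled to 1e6 UMIs of the class) in the floxed library and 90.3 CPM in the Six2Cre library. Tet2 stood at 21.5 CPM in floxed and 27.9 CPM in Six2Cre progenitor-like cells. Outside the Six2 lineage Tet3 was also lower in the floxed library, with ratios of 0.789 in stroma-like and 0.763 in endothelial-like cells against 0.460 in progenitor-like cells. The Tet2 ratio was 0.771 in progenitor-like, 0.921 in stroma-like and 0.711 in endothelial-like cells, so the lowest of the 3 was endothelial-like. Counts of 3′ tags need not fall when an internal exon is removed, so these values are a weak check of the labels.

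The promoters of 4 genes are printed because their genes carry the comparisons that follow: Ldha, Slc2a1 and Bnip3 are low in progenitor-like cells against tubule, and Pfkl differs between the genotypes. Each is the stretch of 150 bases before a gene start in a promoter table of GRCm38.p6, read 5′ to 3′ on the gene's strand. Capitals mark ACGTG or GCGTG on either strand, the core letters known to be bound by HIF1A with its partner ARNT; CACGTG holds ACGTG on both strands, where the copies overlap. The window for Ldha is chr7:46845654-46845803 on the plus strand, before the more upstream of its 2 starts in that table. In the RefSeq gene table Ldha begins further upstream, at 46842274. The other windows are chr4:119108595-119108744 on the plus strand for Slc2a1, chr7:138909507-138909656 on the minus strand for Bnip3, and chr10:78009808-78009957 on the minus strand for Pfkl.
Ldha: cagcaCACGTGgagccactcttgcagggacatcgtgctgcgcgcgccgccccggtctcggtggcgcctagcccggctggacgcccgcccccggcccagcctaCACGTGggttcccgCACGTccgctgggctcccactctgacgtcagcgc
Slc2a1: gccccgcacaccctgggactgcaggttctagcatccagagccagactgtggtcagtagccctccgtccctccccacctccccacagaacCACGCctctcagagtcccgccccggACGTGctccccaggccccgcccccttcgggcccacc
Bnip3: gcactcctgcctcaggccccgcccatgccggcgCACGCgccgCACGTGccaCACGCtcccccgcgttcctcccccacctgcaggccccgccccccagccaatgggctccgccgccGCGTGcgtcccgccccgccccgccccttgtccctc
Pfkl: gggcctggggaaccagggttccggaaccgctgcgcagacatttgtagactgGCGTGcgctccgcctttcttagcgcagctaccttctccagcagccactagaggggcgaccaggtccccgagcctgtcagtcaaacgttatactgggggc

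Of the 33 genes, 30 had a promoter in the table. Over windows of 250 bases before to 50 after a start, 28 of 30 genes (93.3%) held one of the motifs, against 12628 of 27025 genes in the table (46.7%). Counted by window, 36 of 43 (83.7%) held one, against 14380 of 32851 (43.8%). A match describes letters and is not evidence of binding. Both motifs hold the letters CG, and the shares over the table were not matched to the members for base composition or level. Whether the gap is particular to these genes was thus not tested.

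**Figure D1:**
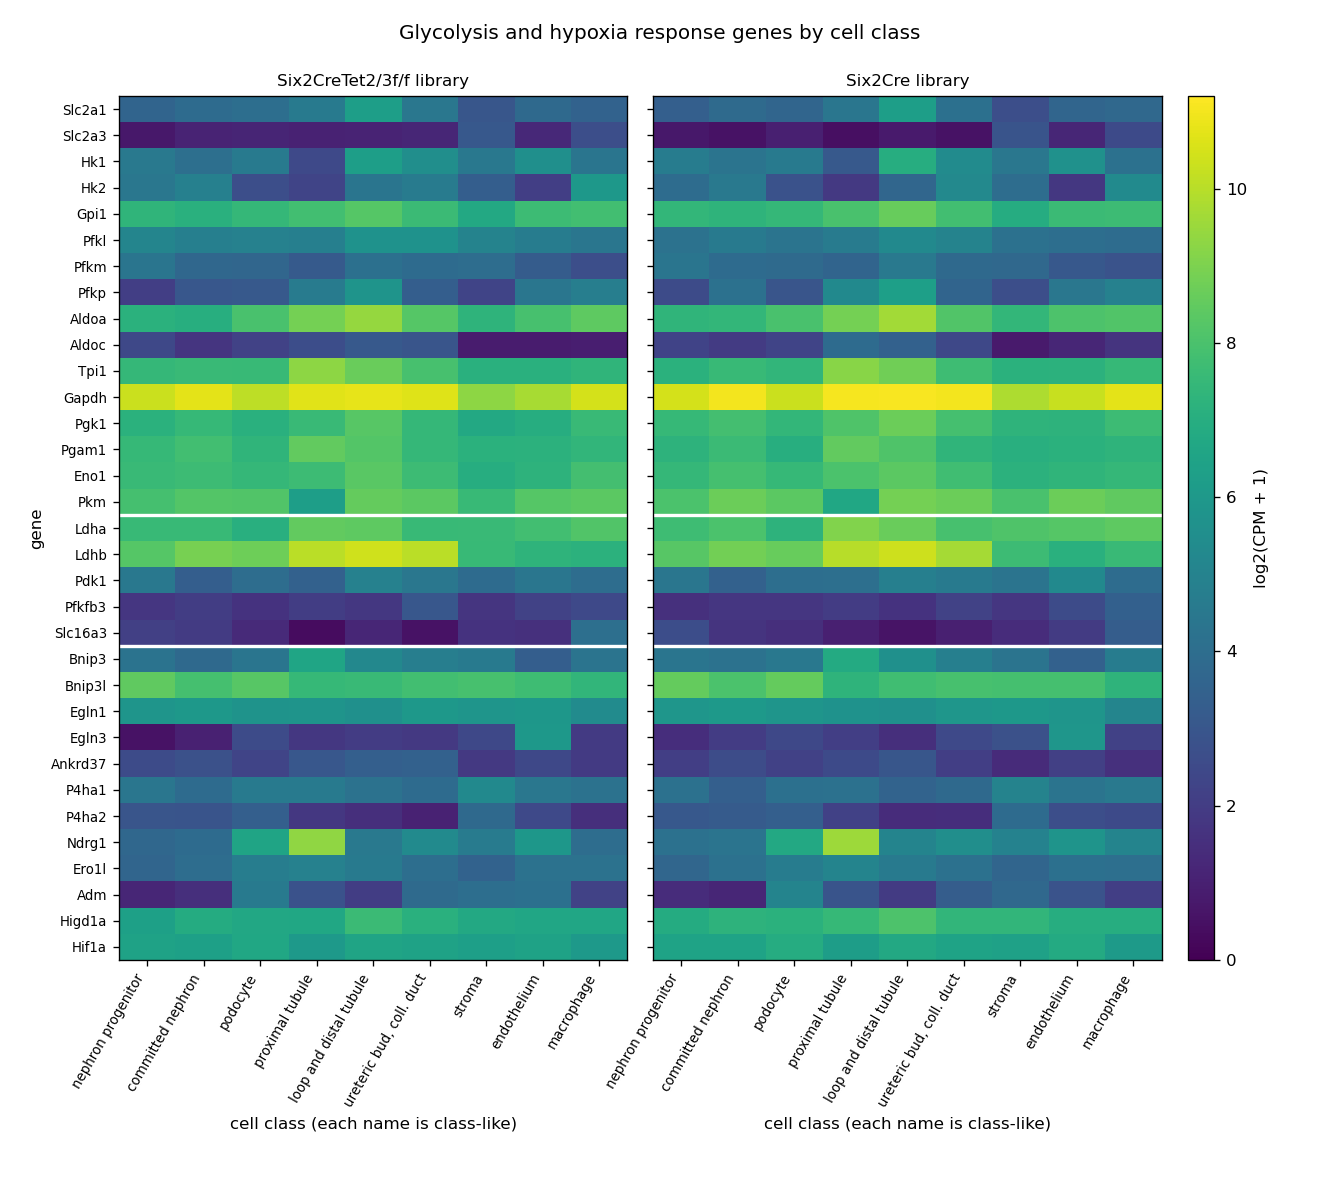
Levels of the 33 genes as log2(CPM + 1), by gene (rows) and class (columns), in the Six2CreTet2/3f/f library on the left and the Six2Cre library on the right. White lines part the glycolytic enzymes, the lactate and pyruvate branch and the hypoxia response. Ndrg1 is brightest in proximal tubule-like cells and Egln3 in endothelial-like cells of both libraries.

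Across 9 classes, 26 of the 33 genes had the same highest class in both libraries. Cells like those of the loop of Henle and distal tubule (loop and distal tubule-like below) held the top level for 12 of them and proximal tubule-like cells for 6. Stroma-like cells came first for 3, podocyte-like and macrophage-like cells for 2 each, and endothelial-like cells for 1. No gene had its top level in progenitor-like cells of both libraries. The progenitor-like level was the lowest of the 9 in both libraries for Pfkp, Egln3, Ndrg1 and Higd1a. Stroma-like cells held the lowest level for 7 genes. In 7 genes no class of either library reached 25 CPM, so these sit below the minimum used for calls.

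Together the 33 genes took 0.375% of UMIs in floxed and 0.400% in Six2Cre progenitor-like cells. The shares were 0.653% and 0.752% in floxed and Six2Cre proximal tubule-like cells, and 0.714% and 0.818% in floxed and Six2Cre loop and distal tubule-like cells. Progenitor-like cells therefore stood well below both tubule classes. They stood above stroma-like cells, at 0.269% and 0.327% in the floxed and Six2Cre libraries, and near endothelial-like cells, at 0.334% and 0.399%.

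**Figure D2:**
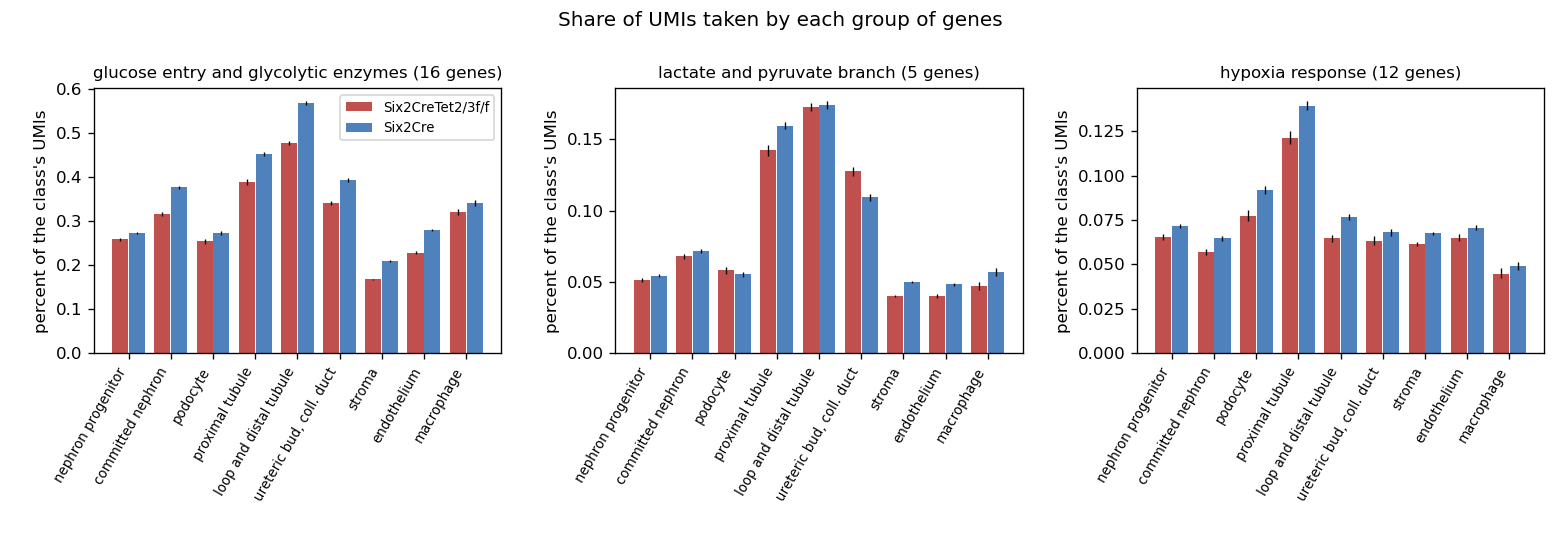
Percent of each class's UMIs (vertical axis) taken by 3 groups of the genes, by class (horizontal axis), with Six2CreTet2/3f/f bars left of Six2Cre bars and exact 95% counting intervals. The glycolytic enzymes and the lactate and pyruvate branch peak in loop and distal tubule-like cells, and the hypoxia response genes in proximal tubule-like cells. That last peak rests largely on 1 gene, Ndrg1. It stood at 649 and 753 CPM in floxed and Six2Cre proximal tubule-like cells, where all 12 genes took 0.121% and 0.139% of UMIs.

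The progenitor comparisons use a rule of size in place of a test: at least 25 CPM in the higher class and an interval of the ratio wholly beyond 1.5-fold, in the same direction in both libraries. Against proximal tubule-like cells (287 floxed and 485 Six2Cre cells), 17 of the 33 genes passed the minimum, of which 2 were higher and 8 lower in progenitor-like cells. Over all 5624 genes tested, 14.7% were higher and 20.8% lower by the same rule. The median log2 ratio of the members was −0.47 in the floxed and −0.64 in the Six2Cre library, against 0.08 and 0.03 over all genes. The members therefore lay mostly on the proximal tubule side.

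Among the glycolytic enzymes, Pkm, whose product makes pyruvate in the last step of glycolysis, was higher in progenitor-like cells. In the floxed library Pkm stood at 238 CPM in progenitor-like cells, against 75.8 CPM in proximal tubule-like cells, a ratio of 3.14 (2.77 to 3.57). In the Six2Cre library it stood at 260 CPM against 102 CPM, a ratio of 2.55 (2.37 to 2.74). The Pkm call was lost at Leiden resolution 0.5, a coarseness setting of the clustering, and with a stricter filter on cells. Aldoa, Tpi1 and Pgam1, which act in the middle of the pathway, ran the other way. Tpi1 stood at 174 CPM in floxed progenitor-like cells against 627 CPM in proximal tubule-like cells, and at 143 against 587 CPM in the Six2Cre library. It was thus 3.61-fold (3.39 to 3.84) and 4.10-fold (3.92 to 4.28) lower in progenitor-like cells. Aldoa was 3.21-fold and 2.93-fold lower, and Pgam1 2.03-fold and 2.36-fold lower, in the floxed and Six2Cre libraries. Pgam1 lost its call with the stricter filter. These enzymes also act in reverse during gluconeogenesis.

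Both lactate dehydrogenase chains were lower in progenitor-like than in proximal tubule-like cells. Ldhb, the chain that favours lactate oxidation, stood at 300 CPM in floxed progenitor-like cells against 1042 CPM in proximal tubule-like cells, and at 308 against 1034 CPM in the Six2Cre library. Ldha, the chain that favours lactate formation, was 2.00-fold (1.86 to 2.14) lower in the floxed and 2.60-fold (2.50 to 2.71) lower in the Six2Cre library.

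The widest gap of the module against proximal tubule belonged to Ndrg1, a stress-responsive gene that HIF induces. In the floxed library it stood at 12.4 CPM in progenitor-like cells and 649 CPM in proximal tubule-like cells, 52.4-fold lower (44.1 to 62.8). In the Six2Cre library it stood at 17.4 and 753 CPM, 43.4-fold lower (39.4 to 47.9). With every cell thinned to 2000 UMIs, 2.80% of floxed and 4.07% of Six2Cre progenitor-like cells had an Ndrg1 UMI, against 58.5% and 64.9% of proximal tubule-like cells. Unthinned, the progenitor-like shares were 8.14% and 14.8%, and the proximal tubule-like shares 82.6% and 88.04%. The 9 proximal tubule markers summed to 42.1 CPM in floxed and 84.5 CPM in Six2Cre progenitor-like cells, which is 0.938% and 1.81% of their proximal tubule-like level. Ndrg1 in progenitor-like cells stood at 1.91% and 2.30% of its own proximal tubule-like level. The part of free RNA in the progenitor-like Ndrg1 value was not tested.

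Bnip3 and Bnip3l, paralogs that recruit the machinery of mitophagy, split between these classes. Bnip3 stood at 18.5 CPM in floxed progenitor-like cells against 93.8 CPM in proximal tubule-like cells, and at 19.7 against 114 CPM in the Six2Cre library, 5.08-fold and 5.76-fold lower. Bnip3l stood at 355 CPM against 178 CPM in the floxed and 372 CPM against 153 CPM in the Six2Cre library, 1.99-fold and 2.42-fold higher. Bnip3 made up 5.0% of the pair's UMIs in progenitor-like cells of each library, against 34.5% in floxed and 42.6% in Six2Cre proximal tubule-like cells. Ero1l, an oxidase of the endoplasmic reticulum, was the remaining member called lower, by 2.51-fold and 2.62-fold.

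**Figure D3:**
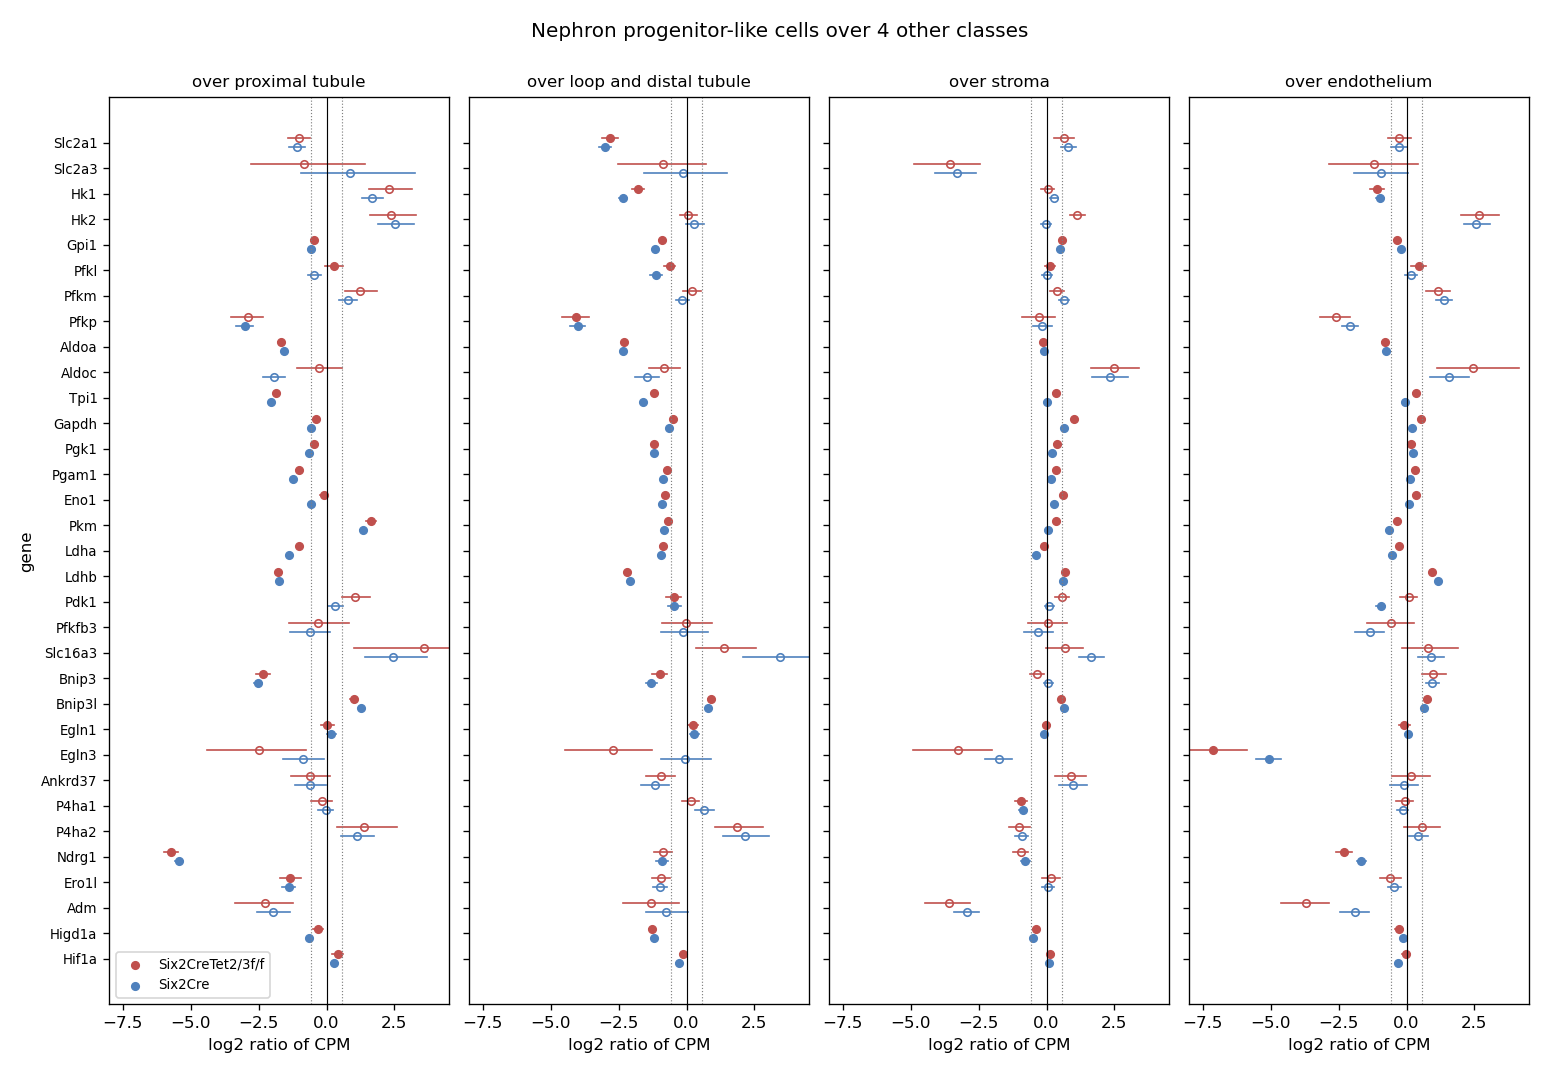
log2 ratio of CPM in progenitor-like cells over 4 other classes (horizontal axis, 1 panel per class) for each gene (vertical axis), with the Six2CreTet2/3f/f library above the Six2Cre library and lines for exact 95% counting intervals, cut at the panel edge. Filled points reach 25 CPM in the higher class of that library, and dotted lines mark 1.5-fold. Most filled points of the loop and distal tubule panel lie left of zero.

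The comparison with loop and distal tubule-like cells (702 floxed and 516 Six2Cre cells) gave the most calls. Of the 20 genes past the minimum, 14 were lower and 1 higher in progenitor-like cells. Over all 5493 genes tested, 16.7% were lower and 8.68% higher. The median log2 ratio of the members was −0.89 in the floxed and −1.15 in the Six2Cre library, against 0.02 and −0.02 over all genes.

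The lower glycolytic genes were the glucose transporter Slc2a1, hexokinase Hk1, the isomerase Gpi1, phosphofructokinase Pfkp, and Aldoa, Tpi1, Pgk1, Pgam1, Eno1 and Pkm. Slc2a1 stood at 11.1 CPM in floxed progenitor-like cells against 77.5 CPM in loop and distal tubule-like cells, and at 9.42 against 75.5 CPM in the Six2Cre library. It was 6.98-fold (5.73 to 8.55) and 8.02-fold (6.90 to 9.34) lower. Pfkp, one of 3 paralogs for the committed step of the pathway, was 16.7-fold (11.9 to 24.2) and 16.1-fold (13.3 to 19.7) lower in progenitor-like cells. Aldoa was 4.89-fold and 5.10-fold lower, and Hk1 3.47-fold and 5.08-fold lower. Gpi1, Tpi1, Pgk1, Pgam1, Eno1 and Pkm differed by 1.60-fold to 3.03-fold. After thinning to 2000 UMIs 9 of the 14 calls were kept, and Pgam1, Eno1, Pkm, Ldha and Bnip3 lost theirs. Pgam1, Eno1 and Pkm also lost theirs with the stricter filter and with the total without mitochondrial, ribosomal and haemoglobin genes.

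Ldhb was 4.52-fold and 4.25-fold lower in floxed and Six2Cre progenitor-like cells than in loop and distal tubule-like cells, and Ldha 1.83-fold and 1.94-fold lower. From the hypoxia response, Bnip3 and Higd1a, a protein of the mitochondrial inner membrane, were lower. Higd1a stood at 81.6 CPM in floxed progenitor-like cells against 197 CPM in loop and distal tubule-like cells, and at 116 against 266 CPM in the Six2Cre library. Bnip3l was the 1 member called higher, by 1.85-fold and 1.72-fold, and it lost the call after thinning and beyond 2-fold.

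Stroma-like cells (4081 floxed and 5371 Six2Cre cells) gave few calls. Of 15 genes past the minimum, 1 was higher and 1 lower in progenitor-like cells, where 6.1% and 10.9% of all 5296 genes tested were, so the share called was near or below that of all genes. On the log2 scale the members' median ratio was 0.35 in the floxed and 0.09 in the Six2Cre library, against 0.02 and −0.02 over all genes. Gapdh stood at 1248 CPM in floxed progenitor-like cells against 619 CPM in stroma-like cells, and at 1406 against 894 CPM in the Six2Cre library, 2.02-fold and 1.57-fold higher. P4ha1, the catalytic subunit of an enzyme that hydroxylates collagen, stood at 20.02 against 38.6 CPM in the floxed and 16.96 against 30.9 CPM in the Six2Cre library, 1.93-fold and 1.82-fold lower. Gapdh lost its call at resolution 0.5, with the stricter filter and beyond 2-fold, and P4ha1 after thinning, at a minimum of 100 CPM and beyond 2-fold. Slc2a3, a glucose transporter of high affinity, stayed under the minimum, at 0.637 CPM in floxed progenitor-like cells against 7.43 CPM in stroma-like cells, and 0.664 against 6.55 CPM in the Six2Cre library.

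Against endothelial-like cells (1529 floxed and 2879 Six2Cre cells), 2 of 17 genes past the minimum were higher and 4 lower in progenitor-like cells. Over all 5579 genes tested, 9.82% were higher and 17.5% lower. The higher genes were Ldhb, by 1.94-fold and 2.25-fold, and Bnip3l, by 1.70-fold and 1.57-fold. The lower genes were Hk1, Aldoa, Ndrg1 and Egln3. Bnip3l lost its call with the stricter filter, with no doublets removed, without cycling cells and beyond 2-fold, and Aldoa at resolution 0.5, with no doublets removed, with the total without mitochondrial, ribosomal and haemoglobin genes, after thinning and beyond 2-fold.

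Egln3 encodes a HIF prolyl hydroxylase that HIF itself induces. It stood at 0.455 CPM in floxed progenitor-like cells against 62.7 CPM in endothelial-like cells, 138-fold lower (58.5 to 427), and at 1.76 against 58.7 CPM in the Six2Cre library, 33.4-fold lower (24.8 to 46.1). The progenitor-like values rest on few molecules. After thinning to 2000 UMIs, 0.0636% of floxed and 0.267% of Six2Cre progenitor-like cells had an Egln3 UMI, against 10.9% and 9.42% of endothelial-like cells. Unthinned, the shares were 0.313% and 1.63% of progenitor-like cells against 18.8% and 23.6% of endothelial-like cells. The 9 endothelial markers stood in progenitor-like cells at 1.34% and 2.30% of their endothelial-like level, and Egln3 at 0.726% and 3.00%. Progenitor-like Egln3 is thus at a level like that of the endothelial markers, and the part of free RNA in it was not tested. The paralog Egln1, the main oxygen sensor of the family, showed no such gap. Egln1 stood at 56.4 CPM in floxed progenitor-like cells against 59.5 CPM in endothelial-like cells, and at 57.6 against 55.7 CPM in the Six2Cre library. Hif1a itself lay between 64.2 and 119 CPM in all 9 classes of both libraries.

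The remaining epithelial classes gave 3 calls or fewer each. Against committed nephron-like cells none of the 14 members past the minimum was called in either direction. Of all genes, 3.45% were higher and 8.28% lower in progenitor-like cells. Against podocyte-like cells 1 of 15 was called, Ndrg1, 7.47-fold and 6.23-fold lower, where 3.73% of all genes were higher and 12.1% lower. Against ureteric bud and collecting duct-like cells 3 of 18, Aldoa, Ldhb and Ndrg1, were called lower and none higher. Of all genes, 11.7% were lower and 4.93% higher there. The members' median log2 ratio was −0.42 in the floxed and −0.50 in the Six2Cre library, against −0.01 and −0.07 over all genes. Against podocyte-like cells it was −0.08 and −0.07, against −0.13 and −0.14 over all genes. Adm, a vasodilator peptide, was highest in podocyte-like cells, at 22.7 CPM in the floxed and 31.8 CPM in the Six2Cre library, against 1.27 and 1.68 CPM in progenitor-like cells.

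Paralog shares set each gene against its own family and do not depend on the class total. For phosphofructokinase, Pfkp took 5.8% of family UMIs in floxed and 11.5% in Six2Cre progenitor-like cells, against 44.5% and 56.4% in loop and distal tubule-like cells. Pfkm took 34.3% and 46.6% in floxed and Six2Cre progenitor-like cells, against 13.5% and 15.2% in proximal tubule-like cells. Hk2, the inducible hexokinase, took 48.0% and 37.2% of the pair with Hk1 in progenitor-like cells, against 6.4% and 4.8% in endothelial-like cells. Ldha took 38.01% and 40.4% of lactate dehydrogenase UMIs in progenitor-like cells. That lay between loop and distal tubule-like cells, at 19.9% and 23.6%, and endothelial-like cells, at 58.9% and 68.7%. Slc2a3 and Slc2a1 were near equal in stroma-like cells, with Slc2a3 at 51.2% and 54.8% of the pair in the floxed and Six2Cre libraries. Slc2a3 stood at 7.43 and 6.55 CPM there, and Slc2a1 at 7.09 and 5.41 CPM.

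**Figure D4:**
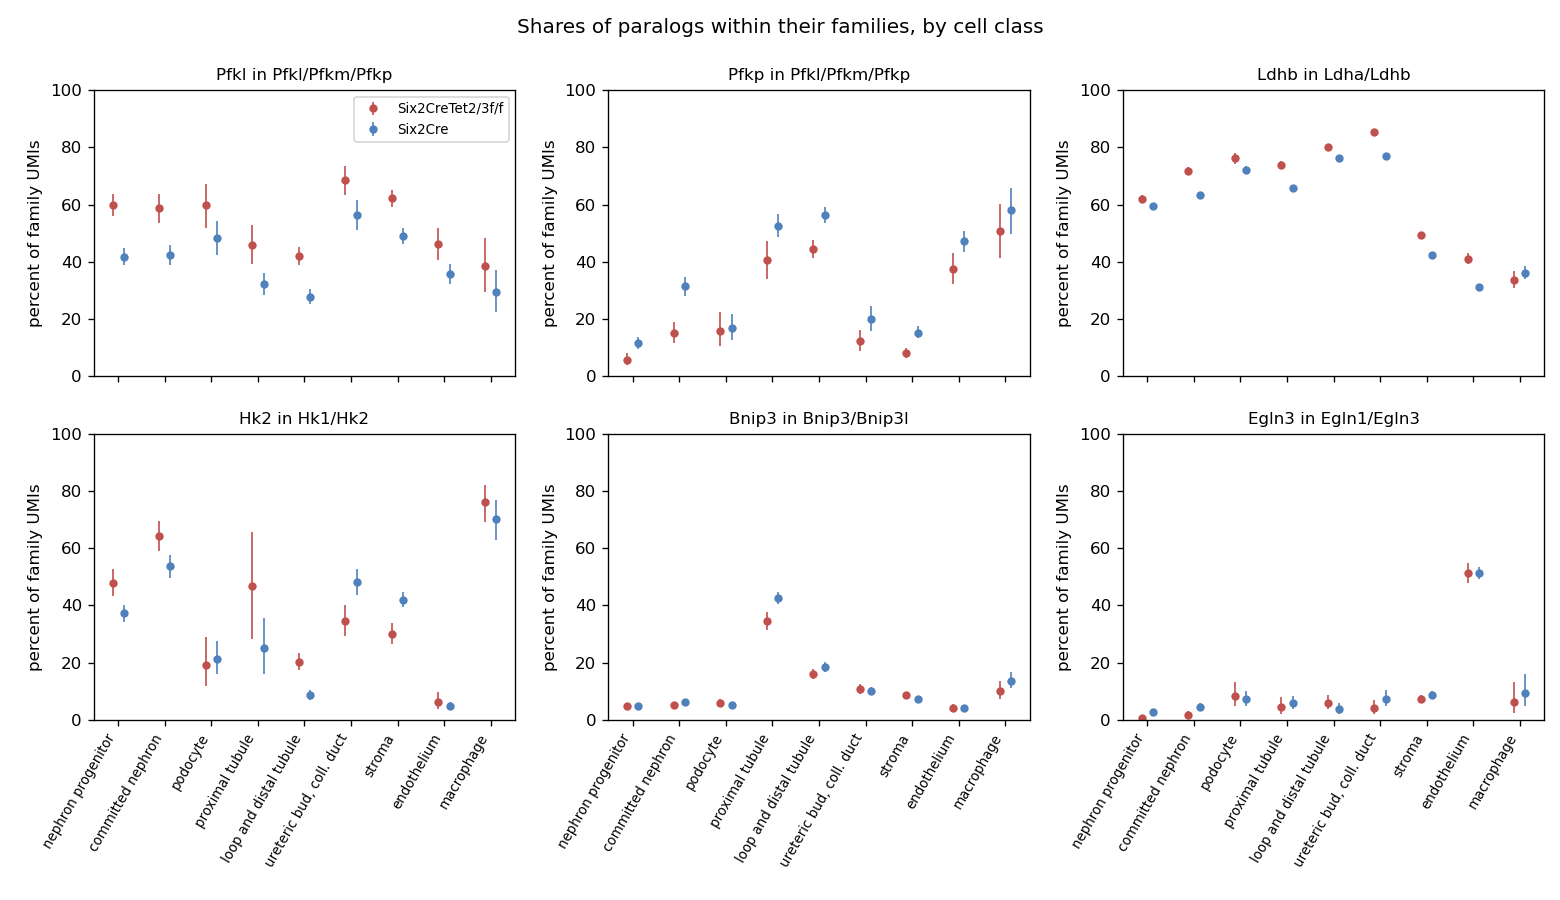
Percent of family UMIs (vertical axis) taken by 6 genes in 9 classes (horizontal axis), with Six2CreTet2/3f/f points left of Six2Cre points and exact 95% counting intervals. Egln3 reaches 51.3% in endothelial-like cells of both libraries, and the Pfkl share is higher in the Six2CreTet2/3f/f library in all 9 classes.

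Neighbouring pathways were read from fixed lists of other genes. Of 12 gluconeogenesis and fructose genes, 9 passed the minimum against proximal tubule-like cells and all 9 were lower in progenitor-like cells, where 20.8% of all genes were. Fbp1, a rate-limiting phosphatase of gluconeogenesis, stood at 4.64 CPM in floxed progenitor-like cells against 609 CPM in proximal tubule-like cells, and at 9.54 against 637 CPM in the Six2Cre library. Of 11 pyruvate oxidation genes, 8 passed the minimum against proximal tubule-like cells and 4 were lower in progenitor-like cells, where 20.8% of all genes were. Against loop and distal tubule-like cells 9 passed and 7 were lower, where 16.7% of all genes were. They included Mpc1 and Mpc2, which form the mitochondrial pyruvate carrier. Mpc2 stood at 153 CPM in floxed progenitor-like cells against 857 CPM in loop and distal tubule-like cells, and at 143 against 929 CPM in the Six2Cre library. Of 20 other glycolysis genes, 6 passed the minimum against proximal tubule-like cells, with 1 higher and 1 lower in progenitor-like cells (14.7% and 20.8% of all genes). Against loop and distal tubule-like cells 8 passed, with 1 higher and 4 lower (8.68% and 16.7%). Stroma-like and endothelial-like cells each gave 4 past the minimum, with 2 higher and 0 lower (6.1% and 10.9%, 9.82% and 17.5%). Slc16a1, a lactate and pyruvate transporter, was among the higher genes in each of the 4 comparisons. Its levels were 35.1 and 41.1 CPM in floxed and Six2Cre progenitor-like cells, against 8.12 and 8.97 CPM in stroma-like cells. Of 30 other hypoxia response genes, 12 passed the minimum against endothelial-like cells. In progenitor-like cells 3 of these were higher and 4 lower, where 9.82% and 17.5% of all genes were. One of the lower genes was Epas1, the HIF subunit known from endothelium. It had 4.19 and 5.67 CPM in floxed and Six2Cre progenitor-like cells, against 120 and 160 CPM in endothelial-like cells.

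Between the genotypes, few of the 33 genes passed the rule in any class. In progenitor-like cells 1 of 15 genes past the minimum was called, Pfkl, where 3.42% of all 5262 genes tested were. Pfkl encodes the liver-type phosphofructokinase. It stood at 33.6 CPM in floxed and 17.6 CPM in Six2Cre progenitor-like cells, a ratio of 1.91 (1.66 to 2.20). The main progenitor-like cluster held 34.7 CPM in the floxed and 17.6 CPM in the Six2Cre library, and the cycling cluster 29.7 and 17.5 CPM. The difference was thus present in both clusters. Pfkm stayed at 19.2 CPM in floxed and 19.6 CPM in Six2Cre progenitor-like cells, and the 3 paralogs together stood at 56.1 and 42.0 CPM.

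Pfkl was also the 1 gene called in stroma-like cells, where 3.56% of all genes were. It stood there at 31.0 CPM in the floxed and 17.2 CPM in the Six2Cre library, a ratio of 1.80 (1.61 to 2.02). The log2 ratio of Pfkl was above 0 in all 9 classes, from 0.21 in proximal tubule-like cells to 0.94 in progenitor-like cells, and its interval lay above 0 in 7. The call in progenitor-like cells was lost after thinning, that in stroma-like cells with the stricter filter, and both at 100 CPM and beyond 2-fold. Endothelial-like cells had 24.7 CPM in the floxed and 15.5 CPM in the Six2Cre library. The difference was thus also present in classes outside the Six2 lineage. The classes of a library share its preparation, so they are not independent.

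**Figure D5:**
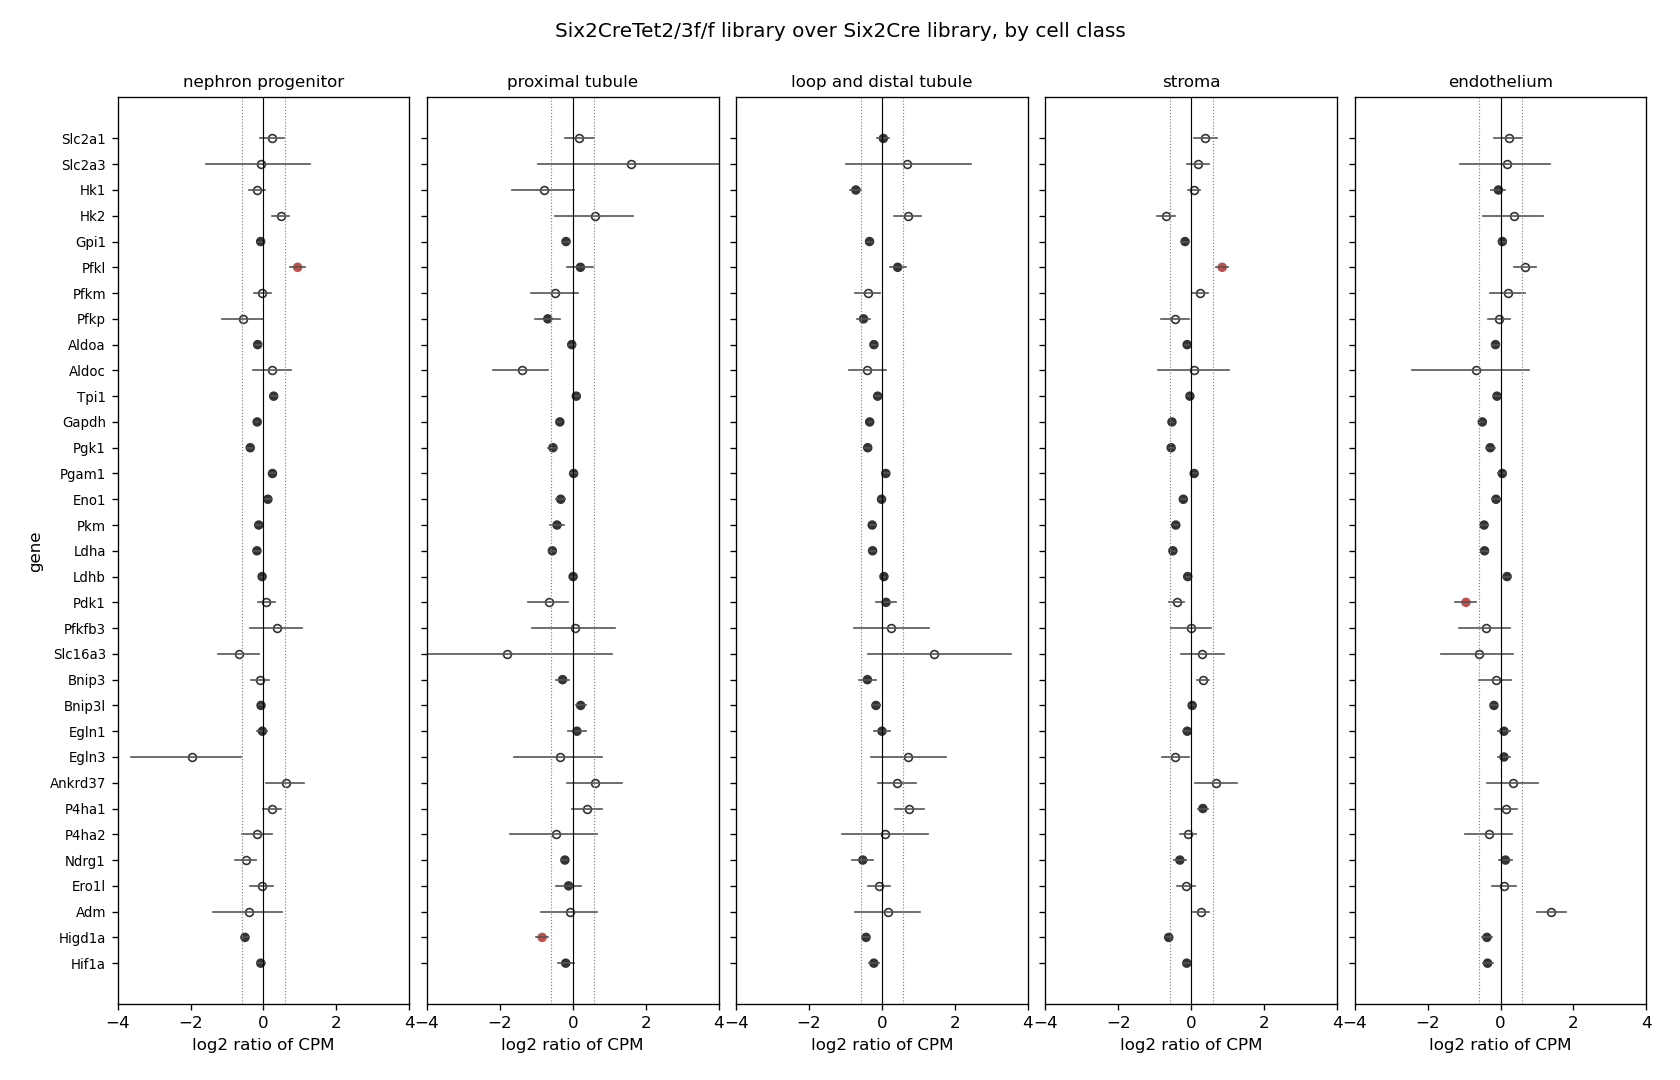
log2 ratio of CPM, Six2CreTet2/3f/f library over Six2Cre library (horizontal axis), for each gene (vertical axis) in 5 classes, with exact 95% counting intervals cut at the panel edge. Filled points reach 25 CPM in the higher library, red points passed the size rule and dotted lines mark 1.5-fold. Red points are Pfkl in progenitor-like and stroma-like cells, Higd1a in proximal tubule-like cells and Pdk1 in endothelial-like cells.

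In proximal tubule-like cells Higd1a was called, where 4.84% of all genes were. It stood at 101 CPM in the floxed and 181 CPM in the Six2Cre library, a ratio of 0.559 (0.497 to 0.628). Higd1a lost the call at Leiden resolution 0.5, with the stricter cell filter, with no doublets removed, after thinning and beyond 2-fold, and at resolution 0.5 Slc2a1 was called in its place. In endothelial-like cells Pdk1, a kinase that holds pyruvate back from mitochondrial oxidation, was called, where 3.19% of all genes were. It stood at 20.05 CPM in the floxed and 38.7 CPM in the Six2Cre library, a ratio of 0.518 (0.425 to 0.628). The call was lost with no doublets removed, at a minimum of 100 CPM and beyond 2-fold. The clusters that make up the class took unequal shares of the libraries: cluster 24, led by Gja4 and Stmn2, held 55 floxed and 278 Six2Cre cells. Within the largest cluster Pdk1 stood at 19.1 CPM in 1276 floxed and 44.9 CPM in 2100 Six2Cre cells, a ratio of 0.425 (0.337 to 0.531). In the next largest it stood at 23.8 and 29.6 CPM, a ratio of 0.802 (0.504 to 1.23), and in cluster 24 at 23.8 and 18.2 CPM, a ratio of 1.31 (0.399 to 3.37). Pdk1 in progenitor-like cells had 21.1 CPM in the floxed and 19.97 CPM in the Six2Cre library, a ratio of 1.06 (0.901 to 1.24). No member was called in loop and distal tubule-like cells, where 4.17% of all genes were, nor in committed nephron-like (1.98%), podocyte-like (2.75%), ureteric bud and collecting duct-like (2.53%) or macrophage-like cells (5.08%).

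Smaller shifts ran in the same direction through many classes. Gapdh and Higd1a were lower in the floxed library in all 9 classes, each with an interval below 0 on the log2 scale. Pgk1, Pkm and Ldha were lower in 9 classes with the interval below 0 in 8. Hif1a was lower in 9 classes with the interval below 0 in 4, and Ndrg1 lower in 8 with the interval below 0 in 7. Pgam1 was higher in 9 classes, with the interval above 0 in 6. Ankrd37, at low counts, was higher in 9 with the interval above 0 in 3. Gapdh log2 ratios ran from −0.53 to −0.17, so no class reached 1.5-fold for that gene. The median log2 ratio of the members in progenitor-like cells was −0.07, against 0.04 over all genes.

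Some measures of cell state and depth also differed between the genotypes, and the stress measure did not move alike in all classes. The 13 genes of the dissociation stress list summed to 2582 CPM in floxed and 4784 CPM in Six2Cre progenitor-like cells, and to 2218 and 4631 CPM in stroma-like cells. In endothelial-like cells they summed to 2403 and 2385 CPM. The sum was higher in the floxed library in proximal tubule-like cells, at 3208 against 2733 CPM, and in podocyte-like cells, at 6228 against 5770 CPM. In the rest of the 9 classes it was lower in the floxed library. Cells with at least 3 UMIs of cycling genes made up 23.1% of floxed and 39.5% of Six2Cre progenitor-like cells, at medians of 6219 and 7673 UMIs. The part of these measures in the genotype ratios was not tested.

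Of the 30 other hypoxia response genes, 11 passed the minimum in progenitor-like cells and 1 was called, where 3.42% of all genes were. It was Tfrc, the transferrin receptor, higher in floxed progenitor-like cells, at 34.0 CPM against 17.7 CPM in Six2Cre ones. Tfrc stood at 131 against 50.02 CPM in floxed and Six2Cre loop and distal tubule-like cells. Red cell precursors are known to express Tfrc strongly. The erythroid marker list, mostly globin genes, summed to 4462 CPM in floxed and 1081 CPM in Six2Cre progenitor-like cells, and to 3913 and 1016 CPM in loop and distal tubule-like cells. It was higher in the floxed library in all 9 classes, and its part in the Tfrc values was not tested. In proximal tubule-like cells 13 of the 30 genes passed the minimum. Of these, 1 was called higher and 3 lower in the floxed library, where 4.84% of all genes were called in either direction. Among the lower was Hmox1, the inducible haem oxygenase, at 49.1 CPM in floxed and 238 CPM in Six2Cre proximal tubule-like cells.

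Scaling to a total without mitochondrial, ribosomal and haemoglobin genes moved the median of all genes by 0.06 to 0.16 on the log2 scale in the progenitor comparisons, towards progenitor-like cells. Ribosomal genes took 28.8% and 31.0% of UMIs in floxed and Six2Cre progenitor-like cells, against 21.5% and 21.4% in proximal tubule-like cells. With that total, 4 members were higher and 9 lower than in proximal tubule-like cells, 1 and 11 than in loop and distal tubule-like cells, 2 and 1 than in stroma-like cells, and 4 and 4 than in endothelial-like cells. In the RefSeq table Tpi1 overlaps Spsb2, Pfkm overlaps Senp1, Pfkp overlaps Pitrm1, Slc16a3 overlaps Csnk1d and Ankrd37 overlaps Ufsp2. Their strands were not compared, so whether tags of these pairs could be mixed was not tested. Eno1 shares near-identical sequence with Eno1b, which had 0.364 CPM in floxed and 1.25 CPM in Six2Cre progenitor-like cells, so Eno1 counts are uncertain to that extent.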

How the data were processed

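Per the labels, whole newborn kidneys were dissociated and loaded at 10000 cells per library on a droplet system with 3′ chemistry. The authors deposited raw UMI counts per gene and barcode, 1 matrix per library, not normalised. The submitters' processing notes name Cell Ranger 6.0.2 and mm10, while version 6.0.1 is recorded per the file headers. The sources used here do not give the annotation release.

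Kept cells had at least 1000 UMIs, 500 genes and under 15% mitochondrial UMIs. The automatic doublet threshold of scrublet marked 0 barcodes in either library and had not worked, so each library lost its top-scoring 8% (1252 floxed, 1696 Six2Cre). Clustering used 2000 variable genes without the members, 30 principal components, 15 neighbours and Leiden resolution 1 (scanpy 1.11.5, igraph 0.11.9). Clusters were named by the mean log2 ratio of marker lists with a pseudocount of 1 CPM, at a score of at least 0.5 and 0.5 above the next class. At least 3 markers of the class also had to be found in 5% of the cells each. Clusters stayed unnamed if their 10 leading genes held as many markers of another class. The same held for shallow clusters, under 1/3 of a library's median UMIs, with no marker among these 10. Of 29 clusters, 5 stayed unnamed. Names are rebuilt from expression.

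Counts were summed per class and library as CPM. Ratios have exact conditional binomial 95% intervals and shares Clopper-Pearson ones; duplicate capture and animal variation are not covered. All 33 members were accounted for, and other pathway genes were named when past the size rule, though 1 of them is not reported here. Members and lists were chosen with earlier results of these data known. The calculation was checked on simulated counts. Python 3.11.15, numpy 2.4.6, scipy 1.17.1 and pandas 2.3.3 were used, and edgeR 4.0.16 for TMM factors in 1 of 11 alternatives. The 2 bisulfite samples were not analysed here.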

Additional observations from a re-analysis of the deposited data

How the results depend on the processing

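Of 143 recomputed counts of called members, 97 stayed within 1.5 times the count reported and 46 did not; most counts are of 1 or 2 genes, so 1 gene more or less counts as a move. Against proximal tubule-like cells the 2 members higher in progenitor-like cells became 1 at Leiden resolution 0.5, with the stricter cell filter or beyond 2-fold, 4 with the total without mitochondrial, ribosomal and haemoglobin genes and 5 with no minimum level, and the 8 lower became 5 beyond 2-fold. Against loop and distal tubule-like cells the 1 higher became 0 after thinning to 2000 UMIs or beyond 2-fold and 2 with no minimum, and the 14 lower became 9 after thinning and 8 beyond 2-fold. Against stroma-like cells the 1 higher became 0 at resolution 0.5, with the stricter filter or beyond 2-fold and 2 with the reduced total or no minimum, and the 1 lower became 0 after thinning, at 100 CPM or beyond 2-fold, 2 without cycling cells and 6 with no minimum. Against endothelial-like cells the 2 higher became 1 with the stricter filter, with no doublets removed or without cycling cells, 4 with the reduced total, 5 with no minimum and 0 beyond 2-fold, and the 4 lower became 1 at 100 CPM and 2 beyond 2-fold. Between genotypes the count of 1 became 0 beyond 2-fold in progenitor-like, proximal tubule-like, stroma-like and endothelial-like cells. It became 0 at 100 CPM in progenitor-like, stroma-like and endothelial-like cells, after thinning in progenitor-like and proximal tubule-like cells, with the stricter filter in proximal tubule-like and stroma-like cells, and with no doublets removed in proximal tubule-like and endothelial-like cells. It became 2 with no minimum in progenitor-like, proximal tubule-like and endothelial-like cells and 2 without cycling cells in stroma-like cells. The cause of these moves was not tested beyond what each setting's own construction gives.

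The log2 ratio of Pfkl in progenitor-like cells lay between 0.79 and 0.94 over the settings that can change it, and in stroma-like cells between 0.76 and 0.92. Pdk1 in endothelial-like cells lay between −1.08 and −0.79. Higd1a in proximal tubule-like cells moved to −0.55 at Leiden resolution 0.5, −0.57 with the stricter filter and −0.58 with no doublets removed, from −0.84 as reported, and kept its sign; at resolution 0.5 the count of 1 is Slc2a1, not Higd1a. No paired analysis was possible because each genotype has 1 library and the groups share only replicate number 1. Low counts limit Egln3, Slc2a3, Slc16a3, Pfkfb3, Adm, Aldoc and Ankrd37 in progenitor-like cells.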

Other observations

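Some values outside the comparisons above may be of use. In macrophage-like cells Hk2 stood at 62.4 CPM in the floxed and 40.4 CPM in the Six2Cre library, the highest level of Hk2 among the 9 classes in both libraries. Hk2 took 76.0% and 70.2% of the pair with Hk1 there. Slc16a3, a lactate exporter, was also highest in macrophage-like cells of both libraries, at 16.0 CPM in the floxed and 8.90 CPM in the Six2Cre library.

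In neutrophil-like cells Slc2a3 took 73.2% of the pair with Slc2a1 in the floxed and 87.0% in the Six2Cre library. In mural and renin cell-like cells Angptl4, a secreted lipase inhibitor that HIF induces, stood at 35.3 CPM in the floxed and 6.70 CPM in the Six2Cre library. The class held 110 floxed and 233 Six2Cre cells, with 453162 and 1344163 UMIs, so these values rest on few molecules. Of 5787 genes tested there, 51 were called higher and 37 lower in the floxed library.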
